A study of Homo sapiens with 22 samples.

Results

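The genes of the cytoplasmic ribosomal proteins were followed through the maturation of HUDEP-2 cells, an immortalized line of human erythroid progenitors, with and without H2A.X or BAZ1B. Members were taken by a rule on the gene name, chosen with earlier results of these data known. Every gene name in both count tables that reads RPS or RPL followed by a number, P0 to P2 or A, with the endings of the paralogs, was taken, and pseudogenes were left out. This gave 84 of 59087 gene names, 32 of the small subunit (RPS) and 52 of the large subunit (RPL). RNA-Seq was done in 2 experiments, each with its own count table. The H2A.X experiment compared 3 subclones that had lost H2A.X with 2 WT subclones, and the BAZ1B experiment set 3 BAZ1B KO subclones beside 3 WT ones. Each was taken at D0, in expansion medium, and at D6, after 6 days of differentiation medium, which makes 22 libraries. The KO cells were made with CRISPR/Cas9 from a lentiviral vector, all groups are the same cell line, and replicate libraries are subclones of that line, so p-values measure the spread between these libraries.

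Ribosomal proteins assemble with ribosomal RNA into the small and large subunits, and their mRNAs are among the most abundant of a growing cell. Most of these mRNAs start with a C followed by a run of pyrimidines, the 5′ terminal oligopyrimidine (TOP) tract, through which mTOR and the binding protein LARP1 control their translation. Erythroid precursors are sensitive to the supply of ribosomes: loss of a copy of RPS19 or of several other members causes Diamond-Blackfan anaemia, in which red cell precursors fail to mature.

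The start sites of the members the comparisons turned on are shown to tell the copies with a TOP tract from those without. Of the 84 members, 67 had a start in the RefSeq table used here (GRCh38.p14), and 47 of these, or 70.1%, began with a C and at least 4 further C or T at 1 of their starts or more, read on the strand of the gene. Such a start was found at 4.07% of the 35116 starts of all genes and in 5.14% of the 27305 genes. Where a gene has several starts, one with a tract is shown if there is any. For RPS19 1 of 2 starts has a tract, and for RPL10 1 of 3. Which start these cells use was not tested. Each window holds 15 bases before the start and the first 15 bases of the transcript, in the 5′ untranslated region of exon 1, and capitals mark the tract.
RPS19: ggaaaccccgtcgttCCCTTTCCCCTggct
RPL36: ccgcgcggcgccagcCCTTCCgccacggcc
RPL39: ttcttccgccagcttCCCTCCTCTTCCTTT
RPLP2: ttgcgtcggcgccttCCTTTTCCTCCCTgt
RPL10: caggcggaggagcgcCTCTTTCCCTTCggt
RPL35: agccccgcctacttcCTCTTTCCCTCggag
RPS27: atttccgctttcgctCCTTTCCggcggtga
RPS27L: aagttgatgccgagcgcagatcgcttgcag
RPL22: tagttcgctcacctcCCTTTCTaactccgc
RPL22L1: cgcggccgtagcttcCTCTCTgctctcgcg
RPL7L1: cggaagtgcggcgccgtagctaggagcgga
These windows lie at chr19:41860240-41860269 (RPS19, plus strand), chr19:5690280-5690309 (RPL36, plus), chrX:119791616-119791645 (RPL39, minus), chr11:809952-809981 (RPLP2, plus), chrX:154398362-154398391 (RPL10, plus), chr9:124861943-124861972 (RPL35, minus), chr1:153990747-153990776 (RPS27, plus), chr15:63157463-63157492 (RPS27L, minus), chr1:6199581-6199610 (RPL22, minus), chr3:170870181-170870210 (RPL22L1, minus) and chr6:42879601-42879630 (RPL7L1, plus). The paralogs RPS27L and RPL7L1 showed no tract at the start given, while RPL22L1 shared a tract with its copy RPL22.

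Library totals ranged from 11910141 to 41273244 counts. The H2AFX gene, which encodes H2A.X, ranged at D0 from 96.3 to 105 CPM (counts scaled to a library total of 1000000) in WT against 21.3 to 49.9 in H2A.X KO, and at D6 from 94.7 to 112 against 17.2 to 52.6. BAZ1B ranged at D0 from 275 to 277 in WT against 187 to 234 in BAZ1B KO, and at D6 from 227 to 241 against 167 to 186. In both cases the groups did not overlap. The column names of 5 of the 6 H2A.X KO libraries carry the word Redo and those of no WT library do, so at D0 this mark and the genotype cannot be told apart.

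Counts of the members are given per kilobase of coding sequence, scaled as CPM but to the TMM-adjusted library total. Only the coding length was allowed for, so the order of genes on this scale describes counts and does not rank mRNA levels. In WT of the BAZ1B experiment at D0, the median member stood at 1740 and the highest was RPL13A, of the large subunit, at 6019 ± 78.7 (SD, n = 3). RPS18, of the head of the small subunit, followed at 5162 ± 129, RPL30 at 5125 ± 74.6 and RPS12 at 4716 ± 38.9 (SD, n = 3 each). On this scale RPS18 and RPL30 differed by less than their spread between libraries, while RPL13A and RPS12 lay apart from their neighbours. The same genes led in the H2A.X experiment, where RPS12 was highest in WT at D0 at 15054 ± 6597 (SD, n = 2), a spread that covered the next members.

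At the low end, RPL3L, RPL10L and RPL39L, the paralogs known from muscle and testis, had between 0 and 6 reads in each library of the BAZ1B experiment and at most 21 in the H2A.X experiment, and did not pass the filter on low counts. The other 81 members passed it in both. RPS10, RPL17 and RPL36A stood below 10% of the median level in every group. Their exons are shared on the same strand with another annotated gene over 84%, 96.9% and 43.8% of their bases, and how reads on shared bases were counted is not known, so their values are uncertain. RPL26, with 65.3% of its exon bases shared, stood above that mark.

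The share of all counts that fell on the members was first compared between libraries. In the BAZ1B experiment it was 7.85%, 7.96% and 8.10% in WT at D0 and 7.82%, 7.73% and 7.73% in KO. At D6 it was 9.78%, 9.47% and 9.73% in WT and 9.46%, 9.55% and 9.84% in KO. All 6 D6 libraries lay above all 6 D0 libraries, by a factor of 1.21 in WT and 1.24 in KO, and KO differed little from WT, with ratios of 0.973 at D0 and 0.995 at D6.

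The H2A.X experiment looked different. WT libraries gave 11.6% and 16.4% at D0 and 16.7% and 20.9% at D6. KO libraries gave 7.88%, 8.60% and 8.50% at D0 and 9.29%, 9.23% and 10.9% at D6. KO stood at 0.596 of WT at D0 and at 0.521 at D6, with no overlap. It was the WT libraries that stood apart, since the KO shares lay near those of the BAZ1B experiment at the same day, although levels across the 2 tables were not tested. WT replicate 2 was the highest library at each day. The D6 KO library without the Redo mark is the one at 10.9%, the highest of the D6 KO libraries and below both WT libraries of that day. Within a genotype the share rose from D0 to D6 in this experiment too, by 1.34 in WT and 1.18 in KO.

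**Figure D1:**
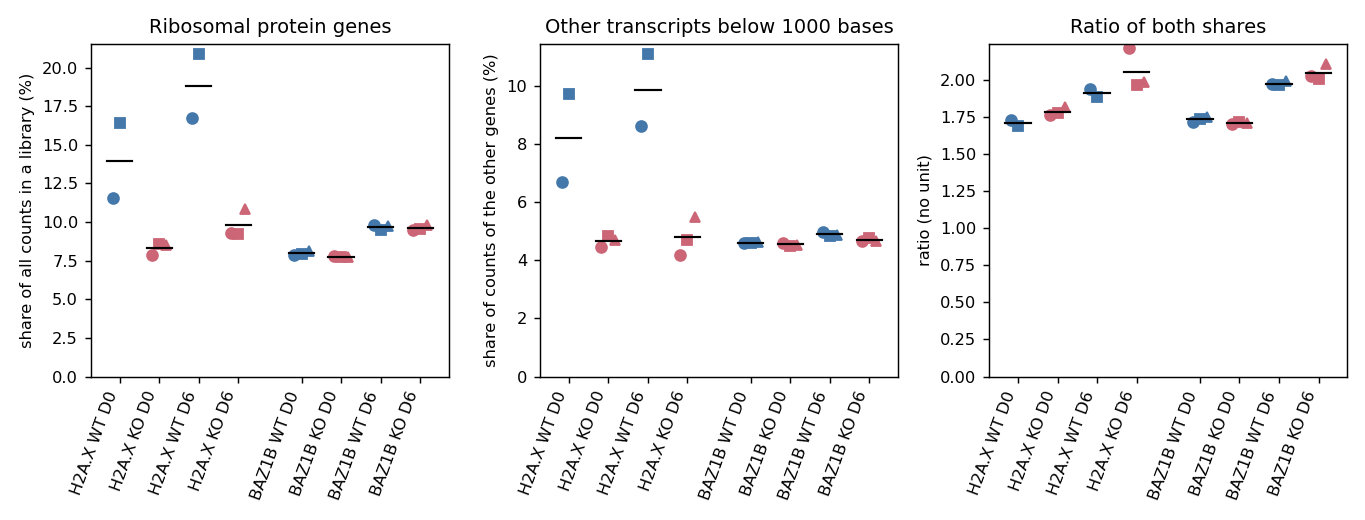
Share of all counts on the 84 ribosomal protein genes (left, %), share of transcripts below 1000 bases among other genes (middle, %) and ratio of both (right), by genotype and day. The middle share is out of the counts of other genes with an annotated length, without globin and mitochondrial genes. Points are libraries, circles, squares and triangles mark replicates 1, 2 and 3, bars are means, blue is WT and red is KO. H2A.X WT stands apart in the first 2 panels, and in the third the libraries split by day, with ratios of 1.69 to 1.81 at D0 and 1.88 to 2.22 at D6.

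These transcripts are short, with a median canonical length of 781.5 bases against 3162 for the other genes tested in the H2A.X experiment. The share of other genes below 1000 bases was therefore taken too, with globin and mitochondrial genes left out. It was taken out of the counts of the other genes with an annotated length, again without those 2 kinds. The members' share is out of all counts, so the denominators differ. In H2A.X WT the short genes held 6.69% and 9.72% at D0 and 8.62% and 11.1% at D6. In H2A.X KO they held 4.46% to 4.83% at D0 and 4.19% to 5.48% at D6. The short genes outside the family stood at 0.568 of WT in KO at D0 and at 0.486 at D6, beside 0.596 and 0.521 for the members. The ratio of the members' share to that of the other short genes lay at D0 between 1.69 and 1.73 in the WT libraries and between 1.77 and 1.81 in the KO libraries. At D6 the WT libraries had 1.88 and 1.94, and the KO libraries 1.96 to 2.22. On this scale KO stood at 1.05 of WT at D0 and 1.07 at D6, above WT rather than below. In the BAZ1B experiment the ratio was 1.70 to 1.75 at D0 and 1.96 to 2.10 at D6. All 11 D6 libraries had a higher ratio than all 11 D0 libraries, with D6 over D0 at 1.12 and 1.15 in H2A.X WT and KO and 1.14 and 1.2 in BAZ1B WT and KO.

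Which members changed as the cells matured was asked first in the BAZ1B experiment, where replicates lay closest. Tests throughout were edgeR's quasi-likelihood tests with Benjamini-Hochberg adjustment over all genes tested, and a gene was called at an adjusted p below 0.05. In WT, 74 of the 81 members were higher at D6 and 3 were lower, where 33.5% of the 13879 genes tested were called higher and 35.4% lower. The median member rose by 0.43 on the log2 scale, or 1.34-fold, while the median of all genes was -0.02. In KO, 73 were higher and 2 lower, against 33.2% and 34.5% of all genes, with a member median of 0.45. All D6 libraries lay above all D0 libraries for 74 members in WT and 73 in KO, where 38.1% and 33.3% of all genes separated that way. Both subunits took part, with 29 of 32 small and 45 of 49 large subunit genes higher in WT. As a description, the median was 0.44 for the 47 members with a TOP tract and 0.35 for the 19 tested members without. No member passed a stricter rule, an adjusted p below 0.001 with a log2 change above 1.5, which 11.7% of all genes passed in WT and 11.5% in KO.

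**Figure D2:**
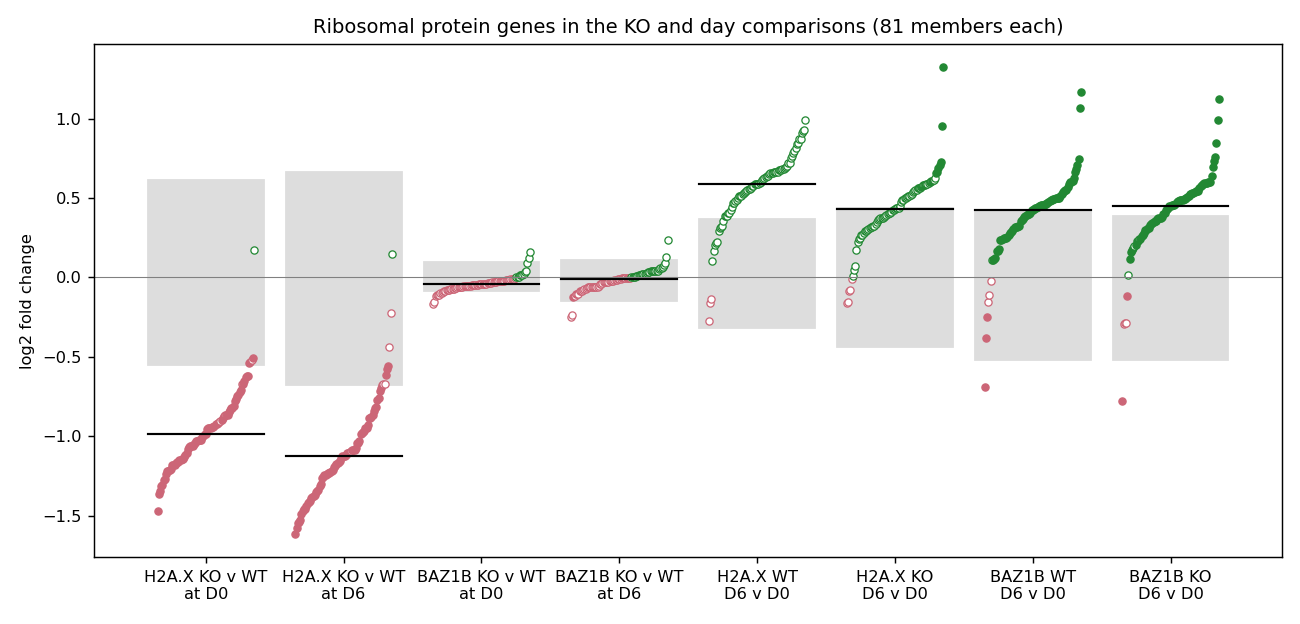
Log2 fold change of the 81 tested members in each of 8 comparisons, 1 point per gene in order of size. Filled points were called at an adjusted p below 0.05, green is higher and red is lower, black bars are the members' medians and grey boxes the interquartile range of all genes tested. Most members lie below the boxes in H2A.X KO against WT, where RPL7L1 stands above 0. They lie near 0 in BAZ1B KO against WT, and mostly above 0 in the day comparisons.

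The largest rises belonged to RPS27L in WT and to RPL10 in KO. RPS27L is a p53-inducible paralog of the small subunit protein RPS27. Its normalized counts in WT were 866, 847 and 806 at D0 and 1980, 1891 and 1789 at D6. In KO they were 1012, 875 and 851 at D0 and 1722, 1864 and 1853 at D6. No D0 library reached any D6 library, and the rise was 1.17 in WT (SE 0.0682, adjusted p = 7.65e-09) and 0.99 in KO (SE 0.0682, adjusted p = 3.88e-08). Its window above shows no TOP tract.

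RPL10 joins the large subunit late in its assembly. WT libraries went from 34057, 34215 and 33957 normalized counts to 71955, 68099 and 74524. KO libraries went from 35929, 29626 and 31468 to 67867, 68878 and 74541. These groups did not overlap either, and the log2 changes were 1.07 in WT (SE 0.0635, adjusted p = 8.95e-09) and 1.12 in KO (SE 0.0636, adjusted p = 6.49e-09). RPL3, which reaches to the peptidyl transferase centre, rose from 104050, 104020 and 102630 to 175470, 167090 and 179730 in WT, a change of 0.75 (SE 0.0499, adjusted p = 2.68e-08). In KO it rose by 0.85 (SE 0.05, adjusted p = 9.21e-09). RPL4, whose protein lines the exit tunnel, rose by 0.68 in WT (SE 0.0393, adjusted p = 6.45e-09).

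RPL23, a large subunit protein that also binds the p53 regulator MDM2, went the other way. It fell in WT from 35076, 35288 and 33568 to 30595, 29504 and 27430, and in KO from 34967, 34988 and 33980 to 32962, 30830 and 31919. All D6 libraries lay below all D0 libraries, with changes of -0.25 in WT (SE 0.0439, adjusted p = 0.000231) and -0.12 in KO (SE 0.0438, adjusted p = 0.0285). The call in KO was lost with a correction for transcript length and GC content (-0.08, adjusted p = 0.0969). RPS10, which shares its exons with another gene, was called lower as well, by -0.69 in WT (adjusted p = 0.00547) and -0.78 in KO (adjusted p = 0.00255).

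Members not called in WT were RPL22L1, RPS26, RPL17 and RPL36A. RPS26, whose protein contacts the mRNA as it leaves the ribosome, stood at 5746, 5749 and 5568 in WT at D0 and at 6425, 6243 and 5741 at D6 (log2 change 0.11, adjusted p = 0.0673). In KO it went from 5115, 5141 and 4929 to 5677, 6057 and 5365, which was called (0.17, adjusted p = 0.00857). Whether WT and KO differed in this change was tested for every member. In edgeR's test 0 of 81 were called, where 2.47% of all genes were, with 4 members at an unadjusted p below 0.05.

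**Figure D3:**
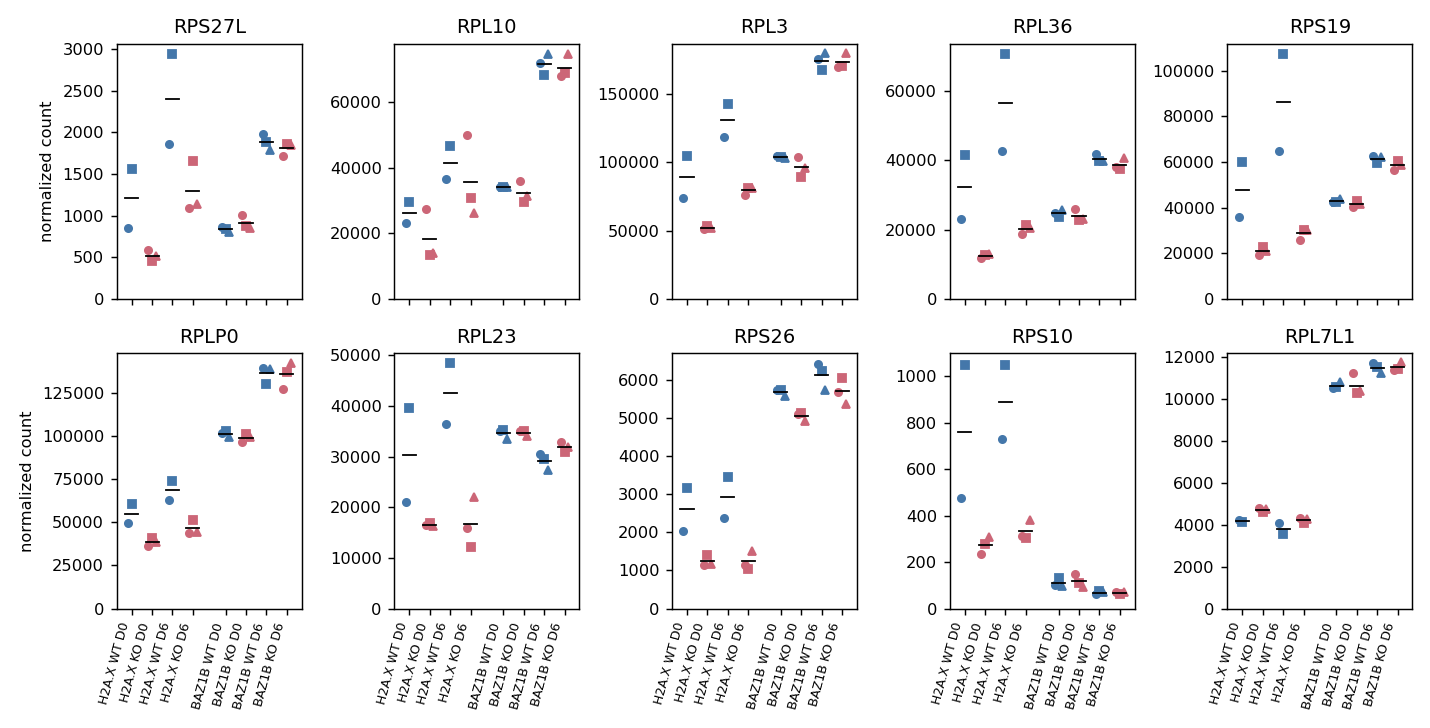
Normalized counts of 10 members in every library, by genotype and day, with linear axes from 0 and a scale of its own in each panel. Points are libraries with replicates 1 to 3 as circles, squares and triangles, bars are means, blue is WT and red is KO, and levels were normalized separately in the H2A.X and BAZ1B experiments. RPS27L, RPL10, RPL3, RPL36, RPS19 and RPLP0 rise with the day in the BAZ1B experiment, RPL23 and RPS10 fall, and in the H2A.X experiment the WT libraries lie above KO in most panels but not for RPL7L1.

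In the H2A.X experiment the day comparison had wider replicates. In WT, edgeR called 0 of 81 members where 2% of all genes were called, although 44 had an unadjusted p below 0.05 and the median member stood 0.59 higher at D6. DESeq2 called 4. Libraries of both days with the same replicate number deviated together in this experiment, and with a term for the subclone 59 members were called higher, against 4.40% of all genes. In KO, 12 were higher at D6, about the same share as the 14.8% of all genes called higher, with a median of 0.43. With the subclone term 66 were higher, against 18.2%. This count of 12 hung on single libraries: without any 1 of the KO libraries of D0 it was 2, without KO replicate 1 or 2 of D6 it was 7 or 3, and without either WT library of D0 it was 33. Here 0 members passed the stricter rule, against 3.22% of all genes.

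RPS27L led here too. It held 586, 452 and 518 normalized counts in KO at D0 and 1099, 1661 and 1136 at D6 (log2 change 1.32, SE 0.267, adjusted p = 0.00474). In WT it went from 855 and 1560 to 1866 and 2938 (0.99, SE 0.323, adjusted p = 0.129, and 0.0315 with the subclone term). The WT libraries did not overlap between days, yet the difference did not pass the test without the pairing. RPL10 rose in KO from 27548, 13476 and 13969 to 49826, 30674 and 26151 (0.96, SE 0.318, adjusted p = 0.0441). KO subclone 1 stood apart at both days, and without its D6 library the change was 0.63 (adjusted p = 0.154). RPS27 rose in KO from 7067, 8178 and 7877 to 11411, 14434 and 12409 (0.73, SE 0.224, adjusted p = 0.033).

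Of the 10 comparisons, those of H2A.X KO with WT had the medians farthest from 0. At D0, 76 of 81 members were lower in KO and 0 higher, where 16.7% of the 13236 genes tested were called lower, and the median member stood at -0.98. At D6, 75 were lower, against 20.9% of all genes, with a median of -1.13. All KO libraries lay below all WT libraries for 78 members at D0 and 76 at D6, where 34.1% and 32.3% of all genes separated in that direction. In edgeR's test 0 members passed the stricter rule, against 0.166% and 0.151% of all genes. The difference between the effects at D6 and D0 was called for 0 of 81 members, also at an unadjusted p below 0.05, where 1.34% of all genes were called. The member with the smallest p was RPS15A (-0.51, SE 0.307, adjusted p = 0.479), and the median of that difference, -0.14, ran from -0.56 to 0.19 when single libraries were left out.

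RPS19, the member most often mutated in Diamond-Blackfan anaemia, held 35971 and 59925 normalized counts in WT and 19323, 22872 and 21125 in KO at D0. At D6 it held 64957 and 107300 in WT and 25952, 30396 and 30228 in KO. The KO libraries lay close together and WT replicate 2 well above replicate 1, and the changes were -1.18 (SE 0.252, adjusted p = 0.00943) and -1.58 (SE 0.252, adjusted p = 0.00365). Of the 19 genes of that disease in the list used, 18 were lower at D0 and 18 at D6, against 16.7% and 20.9% of all genes. Nearly all members were lower as well, as given above. With a correction for coding length and GC content, described below, RPS19 was not called at D0 (-0.50, adjusted p = 0.0569) and was at D6 (-0.73, adjusted p = 0.0167).

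RPL39, a very small protein of the exit tunnel, had the largest change at D6. WT libraries held 722 and 1628 at D0 and 1523 and 2777 at D6, and KO libraries 452, 516 and 492 at D0 and 680, 721 and 700 at D6. The differences were -1.27 at D0 (SE 0.315, adjusted p = 0.0142) and -1.62 at D6 (SE 0.314, adjusted p = 0.0048). RPL36, of the large subunit, had 22979 and 41432 in WT and 11953, 12578 and 13075 in KO at D0 (-1.36, SE 0.259, adjusted p = 0.00757). Neither call held in both corrections for length: RPL39 was not called at D0 with coding length (-0.58, adjusted p = 0.0566) or at D6 with transcript length (-0.56, adjusted p = 0.0701), and RPL36 was not called at D0 with coding length (-0.41, adjusted p = 0.0991).

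The stalk of the large subunit, which recruits the elongation factors, consists of RPLP0 with RPLP1 and RPLP2. RPLP2 stood at 37197 and 65785 in WT and at 15566, 18983 and 18386 in KO at D6 (-1.54, SE 0.29, adjusted p = 0.00453). RPLP0, with the longest coding sequence of them, stood at 63001 and 74079 in WT and 43567, 51649 and 44243 in KO (-0.56, SE 0.164, adjusted p = 0.0204). All 3 were called lower at both days, but RPLP2 was not called at D6 with either length correction (-0.27, adjusted p = 0.304, and -0.51, adjusted p = 0.0724).

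Members not called at D0 included RPL7L1, RPL10, RPL17 and RPL36A, and RPL4 joined them at D6. RPL7L1, a relative of RPL7 found in precursors of the ribosome, was the only member with a positive value. It held 4223 and 4148 in WT and 4795, 4633 and 4739 in KO at D0 (0.17, SE 0.124, adjusted p = 0.29), and 4075 and 3554 against 4316, 4068 and 4285 at D6 (0.15, SE 0.124, adjusted p = 0.355). Its KO libraries lay just above its WT libraries at D0, and all did so but 1 at D6. Its transcript is listed at 4499 bases, and other genes of 3000 to 5000 bases had medians of 0.22 at D0 and 0.31 at D6. For RPL10 the values were -0.52 (SE 0.35, adjusted p = 0.262) and -0.22 (SE 0.351, adjusted p = 0.625), with the libraries of KO subclone 1 within or above WT.

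These counts rested on WT replicate 2, the library with the highest share at each day. Without WT replicate 2 of D0, 0 members were called at D0 and the median was -0.58. Without WT replicate 2 of D6, 0 were called at D6 and the median was -0.81. In these fits a single WT library was assumed to vary like the other groups. For RPS19 the values were then -0.77 (adjusted p = 0.117) and -1.14 (adjusted p = 0.0614).

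Length moved with the difference. Over 11636 other genes the log2 change in H2A.X KO rose with the length of the canonical transcript. Spearman's rho was 0.54 for D0 and 0.595 for D6, across genes that share their libraries. In BAZ1B KO, rho was -0.0291 and 0.05. Other genes of 500 to 750 bases had a median of -0.84 at D0 and -1.05 at D6, and the 28 members of that length -1.01 and -1.17. Other genes of 2000 to 3000 bases stood at -0.15 at both days, and the 12 members of that length at -0.87 and -1.11. Below 500 bases other genes stood at -0.64 and -1.24, and the 9 members of that length at -1.15 and -1.27. The members lay below other genes in every length class, by 0.51 in the shortest at D0. The annotated length is a poor guide for some of them, since RPL37 and RPL14 are listed at 7573 and 7136 bases. By coding length the members themselves showed a trend, rho being 0.453 for D0 and 0.498 for D6 over 81 genes.

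**Figure D4:**
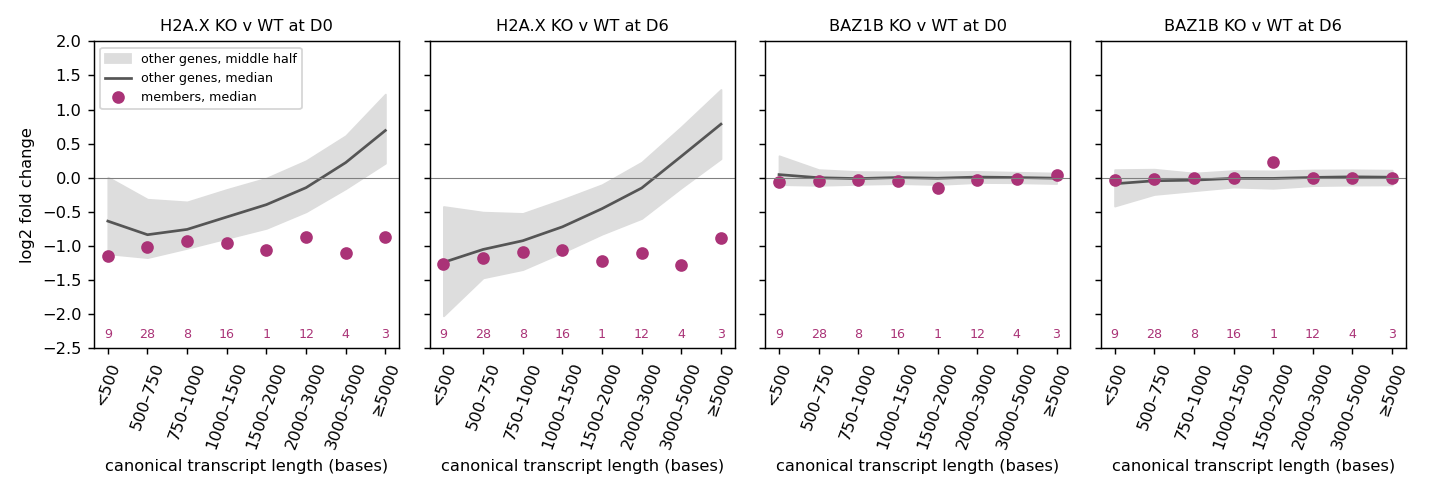
Median log2 fold change of KO against WT by the length of the canonical transcript in bases, for other genes (grey line, with their interquartile range) and for the members (purple points, with the number of members in each bin below). The grey line rises with length from 500 bases on in both H2A.X panels, after a dip at D0, and stays near 0 in both BAZ1B panels, and the purple points lie between -1.28 and -0.87 in both H2A.X panels.

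Each library was then corrected for transcript length and GC content. With this correction 36 members were lower at D0, against 12.0% of all genes, with a median of -0.45. At D6, 27 were lower, against 11.7%, with a median of -0.26. With coding length in its place, 37 were lower at D0, against 13.2%, and 53 at D6, against 15.2%, with medians of -0.49 and -0.55, and RPL41, the shortest protein of the ribosome, was called higher at D6, against 11.3% of all genes. Members lower with and without both corrections numbered 26 at D0 and 24 at D6, and 17 at both days, among them RPLP1, RPL28, RPS23 and RPS26. RPLP1 stood at -0.72 at D0 with either correction (adjusted p = 0.0131 and 0.0137), whereas RPLP0 stood at 0.10 with transcript length and -0.25 with coding length (adjusted p = 0.638 and 0.214). In the day comparison of BAZ1B WT, 68 members were higher with transcript length, against 36.9% of all genes, and 75 with coding length, against 37.5%.

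In the BAZ1B experiment the members' medians in KO against WT were close to 0. At D0, edgeR called 0 of 81, where 3.88% of all genes were called, with a median of -0.04 and 5 at an unadjusted p below 0.05. DESeq2 called 0 as well. At D6, 1 was called lower, where 5.97% of all genes were, with a median of -0.01. This was RPL35, which sits at the exit of the tunnel. It held 29860, 28845 and 28728 in WT and 26031, 26978 and 27302 in KO at D6 (-0.12, SE 0.0368, adjusted p = 0.0455). The groups did not overlap, but the adjusted p rose to 0.0667 with a term for the replicate number, the value turned to 0.01 with the length correction (adjusted p = 0.909), and the call was kept in 2 of 12 fits that each left out a library.

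The smallest p at D0 belonged to RPS26, at 5746, 5749 and 5568 in WT and 5115, 5141 and 4929 in KO (-0.17, SE 0.05, adjusted p = 0.0936). Its groups did not overlap, and it passed the test only with a term for the replicate number (adjusted p = 0.0343), a number not taken to pair WT with KO. Levels were not tested across the experiments.

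Of the 8 paralogs outside the standard set, 5 were tested. Each was set beside its standard copy as reads of the paralog per 100 reads of the copy, both per kilobase of coding sequence. These numbers follow a change within a gene pair and do not compare levels, since only the coding length was allowed for. RPL22L1, whose mRNA RPL22 is known to repress, stood at 127 ± 5.53 in BAZ1B WT at D0 and at 91.1 ± 4.77 at D6 (SD, n = 3). In BAZ1B KO it stood at 121 ± 34.0 at D0 and 108 ± 3.37 at D6. RPL22L1 held 4278, 4074 and 4474 normalized counts in WT at D0 and 3842, 3895 and 3803 at D6 (-0.15, adjusted p = 0.305), and 4840, 2943 and 3726 in KO at D0 and 4274, 4379 and 4938 at D6 (0.24, adjusted p = 0.114). The difference of these changes was 0.39 (SE 0.181, adjusted p = 0.303). Neither the change within a genotype nor their difference passed the test.

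RPS27L went from 4.15 ± 0.171 to 6.21 ± 0.551 per 100 reads of RPS27 in BAZ1B WT and from 4.55 ± 0.433 to 6.03 ± 0.304 in KO (SD, n = 3). In the H2A.X experiment it went from 7.55 ± 0.38 to 8.00 ± 0.0509 in WT (SD, n = 2) and from 6.80 ± 1.39 to 10.1 ± 1.24 in KO (SD, n = 3). The ratio of RPL7L1 to RPL7 was 9.23 ± 3.81 in H2A.X WT and 18.4 ± 0.437 in KO at D0, with RPL7 called lower (-0.95, SE 0.234, adjusted p = 0.0141) and RPL7L1 not called. Their transcripts are listed at 4499 and 1233 bases. In this contrast other genes of 3000 to 5000 bases had a median of 0.22, and those of 1000 to 1500 bases -0.58. The part of length in this ratio was not tested. RPL26 shares 65.3% of its exon bases with another annotated gene, so its pair is uncertain. RPL26L1 was lower in H2A.X KO at both days, by -0.74 (adjusted p = 0.0286) and -0.88 (adjusted p = 0.0119), calls that were lost with either length correction. RPL36AL, the copy of RPL36A on another chromosome, was lower too, at 3881 and 7464 in WT and 2175, 2231 and 2290 in KO at D0 (-1.35, SE 0.276, adjusted p = 0.0088).

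**Figure D5:**
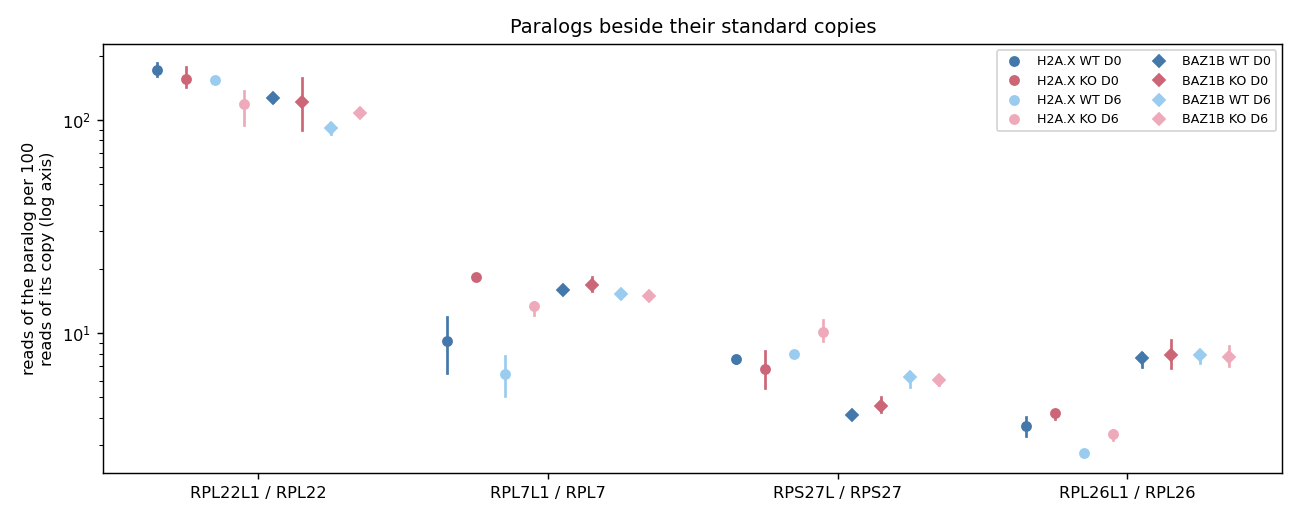
Reads of 4 paralogs per 100 reads of their standard copies, both per kilobase of coding sequence, in each genotype and day, on a log axis. Points are means over the replicates and bars run from the lowest to the highest library. No point compares the level of 2 genes, since only the coding length was allowed for. RPS27L against RPS27 is higher at D6 than at D0 in each genotype, and RPL7L1 against RPL7 is higher in H2A.X KO than in WT. RPL7L1 and RPL7 are listed at 4499 and 1233 bases, and the part of length in their ratio was not tested.

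Disease genes and regulators among the members were counted next. Of the 19 Diamond-Blackfan anaemia genes, 16 rose and 2 fell from D0 to D6 in BAZ1B WT, and 17 and 1 in KO, with medians of 0.36 and 0.38. Most members rose as well, as given above. Of all genes 33.5% rose and 35.4% fell in WT, and 33.2% and 34.5% in KO. RPS10, which shares its exons, fell in both. The MDM2 binders counted were RPL5, RPL11, RPL23 and RPS27L. All 4 were lower in H2A.X KO at both days, as were nearly all members, against 16.7% and 20.9% of all genes. Of these calls, only those of RPL11 and RPS27L at D0 and of RPL23 at D6 held with both length corrections. With the day in BAZ1B WT, 3 of the binders rose and 1, RPL23, fell. RPL11, which with RPL5 and 5S RNA restrains MDM2, went from 38042, 38187 and 39316 to 53118, 50955 and 52375 in BAZ1B WT (0.44, SE 0.033, adjusted p = 8.69e-08). RPL5 rose less, from 46296, 46664 and 46307 to 56224, 54283 and 55895 (0.26, SE 0.0386, adjusted p = 5.77e-05).

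Genes of the same pathway that are not members were counted by lists. FAU, which encodes RPS30 fused to a ubiquitin-like protein, was lower in H2A.X KO by -0.95 at D0 and -1.10 at D6 and higher at D6 in BAZ1B WT by 0.45. Of 17 other transcripts known for TOP tracts, 1 of them the non-coding GAS5, EEF1G was listed at 0 to 2 reads and 16 were tested. From D0 to D6, 13 of them rose and 1, NPM1, fell in BAZ1B WT, and 15 and 1 in KO, against the same shares of all genes. In H2A.X KO 8 were lower and 0 higher at D0, while at D6 6 were lower and 3, EEF2, EIF3L and EIF4B, higher. Of all genes 16.7% were lower and 18.4% higher at D0, and 20.9% and 22.2% at D6. EEF1A1, the elongation factor that brings tRNA to the ribosome, stood at -0.11 at D0 and 0.01 at D6 there, against member medians of -0.98 and -1.13.

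Among 7 genes that control TOP mRNAs and translation, 4 were higher in H2A.X KO at both days and 1 was lower at each, EIF4E at D0 and EIF4EBP1 at D6, beside these shares of all genes. LARP1, which binds the tract, was higher by 0.69 at D0 and 0.90 at D6, and MTOR by 1.08 and 0.79. Longer genes tended to higher values in this contrast, as given above, and the part of length in these counts was not tested. Of 7 chaperones that carry single ribosomal proteins, 5 were lower and 0 higher in H2A.X KO at both days, against 16.7% and 20.9% of all genes lower, namely BCCIP, LTV1, PDCD2, PDCD2L and TSR2. In BAZ1B WT, TSR2, the chaperone of RPS26, rose with the day (0.27), as did PDCD2 (0.20), and GRWD1, HEATR3 and LTV1 fell. Of 3 ribosome rescue factors, 2 fell and 1 rose with the day in BAZ1B WT, HBS1L and PELO falling and ABCE1 rising by 0.13, where 35.4% of all genes fell and 33.5% rose.

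Markers of cell identity moved beside these changes. Of 12 erythroid markers, 12 were higher at D6 in BAZ1B WT and KO, where 33.5% and 33.2% of all genes were. HBG1 passed the filter there only through WT at D6, at 27.2 to 35.7 normalized counts, so its call in WT is no support. In KO at D6 it stood at 3.96, 0 and 1.05, near the floor. In H2A.X KO at D0, 8 were lower and 0 higher, against 16.7% of all genes lower. They held 2.52% and 2.99% of counts in H2A.X WT at D0, against 1.35% to 1.77% in KO, and at D6 3.5% and 5.13% against 4.27% to 6.3%, and in the BAZ1B experiment 0.677% to 0.847% at D0 and 3.08% to 4.10% at D6. Of 9 mast cell and eosinophil markers, 6 were tested in the H2A.X experiment. In KO at D0, 4 of them were higher, against 18.4% of all genes. CPA3, MS4A2 and EPX stood below 10 normalized counts in every other library of that experiment. They passed the filter only through KO at D0, so this count is a description and no support. The 9 markers summed to 853 to 1638 CPM in KO at D0 against 313 to 413 in WT. At D6 2 were lower, against 20.9% of all genes, with sums of 87.4 to 228 in KO and 213 to 400 in WT. Their sum fell with the day in BAZ1B WT from between 1253 and 1297 to between 181 and 200. The eosinophil gene CLC was at or near 0 in every library, and of 5 megakaryocyte markers PF4 and PPBP were listed at 0 in all. ITGA2B, the 1 of these that was tested, was higher in H2A.X KO at D0 (2.39, adjusted p = 0.00847) and lower at D6 in BAZ1B WT (-2.98, adjusted p = 4.55e-07). The 5 summed to 8.16 to 10.4 CPM in H2A.X WT and 36.8 to 84.3 in KO at D0, to 2.94 to 7.55 and 1.9 to 4.94 at D6, and in the BAZ1B experiment to 36.1 to 79.8 at D0 and 1.31 to 9.71 at D6. The part of these cell changes in the members' values was not tested, and a smaller share of cells and less RNA per cell cannot be told apart in bulk libraries.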

How the data were processed

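The deposited files were tables of raw read counts per gene, 1 for each experiment; per the labels, the authors aligned reads with STAR 2.7.0f to hg38 and counted them with featureCounts of Subread 1.6.4. How reads on shared exons or several places were counted, and with which strand setting, is not given in the sources used here. Each table was fitted in R 4.3.3 with edgeR 4.0.16 (filterByExpr, minimum count 10 and total 15, TMM, quasi-likelihood tests), with a coefficient for each genotype and day, over 13236 and 13879 genes, and p-values were adjusted by Benjamini-Hochberg over all genes tested. The scripts were tested on simulated data. Normalized counts are counts divided by effective library size, scaled to the mean of the table. Alternatives were DESeq2 1.42.0, no TMM, TMM without ribosomal protein and globin genes, no filter, a term for the replicate number or subclone, a correction for length and GC content (a spline with 5 degrees of freedom), and leaving out each library. The coding length correction and the ratio to short genes were chosen after seeing the data. Members and lists were chosen with earlier results of these data known, and the genes described are the members and lists with, in each comparison, those of the largest change or smallest p. Within the H2A.X experiment the deviations of D0 and D6 libraries of 1 subclone correlated at 0.301 to 0.599 over all 5 pairs, so the subclone was taken as pairing them. In the BAZ1B experiment they correlated at 0.591, 0.645 and 0.167 in KO and at 0.132, 0.0477 and 0.18 in WT. The BAZ1B day tests given above have no subclone term. Values of some genes are not reported here.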

Additional observations from a re-analysis of the deposited data

Results flagged for a closer look

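Among the genes of the pathway, 1 differed in its KO effect between the days. PDCD2, a chaperone of the small subunit protein RPS2, had 5472, 5487 and 5430 normalized counts in BAZ1B WT at D0 and 5789, 5303 and 5791 in KO. At D6 it had 6240, 6293 and 6290 in WT and 5234, 5314 and 5415 in KO. The KO effect was 0.04 at D0 (adjusted p = 0.65) and -0.24 at D6 (SE 0.0372, adjusted p = 0.00116), and the difference between them was -0.28 (SE 0.0526, adjusted p = 0.0174 in edgeR's quasi-likelihood test of the interaction).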

How the results depend on the processing

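Counts of members called are out of 81, higher and lower together. With DESeq2 they were 4 (H2A.X WT, D6 against D0), 20 (H2A.X KO, D6 against D0) and 2 (BAZ1B KO against WT at D6). With total counts in place of TMM, which moved the median of all genes by up to -0.20 in the day comparisons, they were 3 for H2A.X KO by day and 2 for BAZ1B KO at D6, and RPL7L1 turned to -0.048 in BAZ1B WT and -0.057 in KO by day and RPS26 to -0.0012 in KO. The members' medians by day in BAZ1B WT and KO were then 0.27 and 0.28. Without a filter they were 13 for H2A.X WT and 34 for H2A.X KO by day, 1 for BAZ1B KO at D0 and 1 for the BAZ1B difference of effects.

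With the replicate block they were 59 and 66 for H2A.X WT and KO by day, 1 (RPS26, lower) for BAZ1B KO at D0 and 0 at D6. Same-numbered WT and KO libraries correlated at -0.0573 to 0.211, so the numbers were not taken to pair genotypes. With the length and GC correction they were 36 and 27 for H2A.X KO at D0 and D6, 1 and 53 for H2A.X WT and KO by day and 2 for BAZ1B KO at D6, both higher (RPS20 and RPL30), where RPL35 had been lower. RPLP0 turned to 0.10 and 0.24 at D0 and D6, RPL5 to 0.0054 and RPL3 to 0.0028 at D6, and RPL35 to 0.011 in BAZ1B KO. With the same correction and the block they were 42, 32, 20, 67, 1 (BAZ1B KO at D0) and 6 (D6, all higher), with RPLP0 at 0.16 and 0.29, RPL5 at 0.0030, RPL3 at 0.032, RPL35 at 0.010 and RPS27 at 0.15 in BAZ1B KO at D6. With coding length they were 37 for H2A.X KO at D0, and 4 and 49 by day. TMM without ribosomal protein and globin genes moved no result past a threshold. The causes were not tested.

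Leaving out single libraries gave 0 to 77 and 0 to 76 for H2A.X KO at D0 and D6, 2 to 33 for H2A.X KO by day, 0 to 3 and 0 to 2 for BAZ1B KO at D0 and D6, 0 to 1 for the BAZ1B difference of effects, 73 to 78 and 73 to 77 for BAZ1B WT and KO by day, and 0 for the other H2A.X comparisons. Without globin and mitochondrial genes the mean share of the members was 8.72% in H2A.X KO at D0, 8.33% and 8.13% in BAZ1B WT and KO at D0, and 10.2% and 10.1% at D6, and with pseudogenes added it was 7.82% in BAZ1B KO at D0.

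H2A.X WT has 2 libraries a day, and the H2A.X fit had a biological coefficient of variation of 0.239 against 0.0865, so smaller differences were detectable in the BAZ1B experiment. At D0 all H2A.X KO libraries and no WT library carry the Redo mark, so mark and genotype cannot be told apart. At D6 the KO library without it held 10.9% of counts on the members, against 9.29% and 9.23% in the KO libraries with it and 16.7% and 20.9% in WT. The share of other short genes, as defined above, was 5.48% in that library, against 4.19% and 4.70% in the KO libraries with the mark and 8.62% and 11.1% in WT. The part of the mark in these shares was not tested.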
